A study of Mus musculus with 6 samples.

Results

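The genes of the vascular endothelial growth factor (VEGF) system were examined in bEnd.3 cells, an immortalised mouse brain endothelial line, after contact with mitochondria from osteocyte-like cells. The set was taken by name from the deposited gene table and holds 10 of its 55401 genes. They are the ligands Vegfa, Vegfb, Vegfc, Vegfd and Pgf, the receptors Flt1, Kdr and Flt4, and the neuropilins Nrp1 and Nrp2. In the mitochondria group, 3 samples of wild-type bEnd.3 cells were given mitochondria isolated from MLO-Y4 cells, an immortalised osteocyte-like mouse line, in 100 ul of medium. In the control group, 3 samples of the same wild-type line were given an equal volume of medium alone. RNA was sequenced after 24 h with a stranded mRNA kit. All samples thus share 1 cell line, and the dose of mitochondria is not given in the sources used here. Whether replicates came from separate cultures is not stated, so each p-value rests on the spread among these libraries alone, which may be technical.

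VEGF ligands are secreted dimers that drive the growth, survival and leakiness of vessels. Kdr encodes VEGFR2, the main signalling receptor of blood endothelium for Vegfa, while Flt1 encodes VEGFR1, which binds Vegfa, Vegfb and Pgf tightly and, as a soluble form, acts as a decoy. Flt4 encodes VEGFR3, the receptor of Vegfc and Vegfd that is best known in lymphatic vessels, and neuropilins are co-receptors shared with class III semaphorins.

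Vegfa and Flt1 had the largest fold changes of the family with mitochondria, 1.28-fold and 1.27-fold, and in both genes every mitochondria library stood above every control library. By scaled counts the same held for 10.8% of all genes tested, and 21.4% had no overlap in either direction. Neither Vegfa nor Flt1 passed the threshold in the main test. By the quasi-likelihood test of edgeR, fitted on 12774 genes with a mean of at least 1 FPKM (fragments per kilobase of exon, scaled to library depth), 0 of the 9 family members tested were called at an adjusted p under 0.05, against 0.164% of all genes tested (0.0626% higher and 0.102% lower). At an unadjusted p under 0.05 there were 2 of 9, Vegfa and Flt1, both higher, against 13% of all genes in either direction and 6.79% higher. DESeq2 called 1, Vegfa, which was higher, against 2.82% of all genes in either direction and 1.62% higher. limma on log2(FPKM + 1) called 0, against 0.133% of all genes. When same-numbered libraries were treated as pairs, edgeR called 0 members and 0% of all genes (2153 genes at an unadjusted p under 0.05). The fitted change was above 0 for 7 of the 9 members, against 49.6% of all genes. Kdr, with a mean under 1 FPKM, did not enter these fits.

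The stretch of 250 bases before the annotated start is shown for Vegfa and Flt1, the 2 members with an unadjusted p under 0.05, and for Kdr, the member with the lowest level. The sequences are from RefSeq in GRCm38.p6, on the minus strand, at chr17:46032378-46032627 for Vegfa, chr5:147726012-147726261 for Flt1 and chr5:75978456-75978705 for Kdr. They read 5′ to 3′ and the base next to the start is last. Capitals mark each match, on either strand, to the GC box GGGCGG, the cAMP response element TGACGTCA, the TATA box TATAAA and the cores ACGTG and GCGTG of hypoxia response elements.
Vegfa: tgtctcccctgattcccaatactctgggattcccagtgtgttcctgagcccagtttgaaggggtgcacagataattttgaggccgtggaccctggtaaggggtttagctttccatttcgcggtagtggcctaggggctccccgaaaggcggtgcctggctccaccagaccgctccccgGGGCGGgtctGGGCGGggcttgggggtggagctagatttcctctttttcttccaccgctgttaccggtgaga
Flt1: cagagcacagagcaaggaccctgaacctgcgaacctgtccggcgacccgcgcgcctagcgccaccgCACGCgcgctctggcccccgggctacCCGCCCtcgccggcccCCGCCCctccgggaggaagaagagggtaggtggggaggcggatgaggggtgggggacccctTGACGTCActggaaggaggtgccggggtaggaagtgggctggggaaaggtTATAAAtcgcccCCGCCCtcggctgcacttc
Kdr: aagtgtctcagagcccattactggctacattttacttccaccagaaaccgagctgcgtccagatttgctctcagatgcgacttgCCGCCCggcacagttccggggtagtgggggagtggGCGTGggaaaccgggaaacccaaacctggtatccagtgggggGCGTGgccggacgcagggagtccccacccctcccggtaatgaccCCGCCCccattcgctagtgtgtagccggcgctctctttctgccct

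In the Flt1 window the cAMP response element begins 81 bases and the TATA box 31 bases before the start. Vegfa has neither of these and has its 2 GC boxes 72 and 62 bases before the start. Of all 32851 RefSeq promoter windows of this length, 1.55% hold the cAMP response element, 12.4% the TATA box, 32.7% the GC box, 16.6% ACGTG and 28.2% GCGTG. All 10 members matched an entry. Vegfa and Pgf had 2 entries each, and the one nearest the gene start in the deposited table was used. The RefSeq start lay 477, 469 and 416 bases from that gene start for Pgf, Nrp1 and Flt4. For the other members the distance was at most 144 bases. Across them Flt1 alone holds the cAMP response element, while 9 hold a GC box. ACGTG is in 0 of the 10 windows, and GCGTG is in those of Vegfb, Pgf, Flt1, Kdr, Nrp1 and Nrp2. No marked motif overlaps another in the 3 windows shown. A match describes the letters only. Bases farther upstream or after the start were not searched, so a window without a hypoxia core does not show that the gene has none.

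The ligand with the highest level was Vegfb, and the highest of the other genes was Nrp2. In deposited FPKM the order was the same in both groups, Vegfb, Nrp2, Flt1, Vegfa, Pgf, Vegfc, Nrp1, Vegfd, Flt4 and Kdr. The library ranges of Flt1 and Vegfa overlapped within each group, as did those of Pgf and Vegfc. Those of Nrp1 and Vegfd overlapped among control libraries only. Other neighbours did not overlap. Some of these gaps were narrow. The lowest Nrp1 value with mitochondria was 4.42 FPKM and the highest Vegfd value 4.38 FPKM, and in control libraries the lowest Vegfb value was 49.9 FPKM and the highest Nrp2 value 49.1 FPKM.

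**Figure D1:**
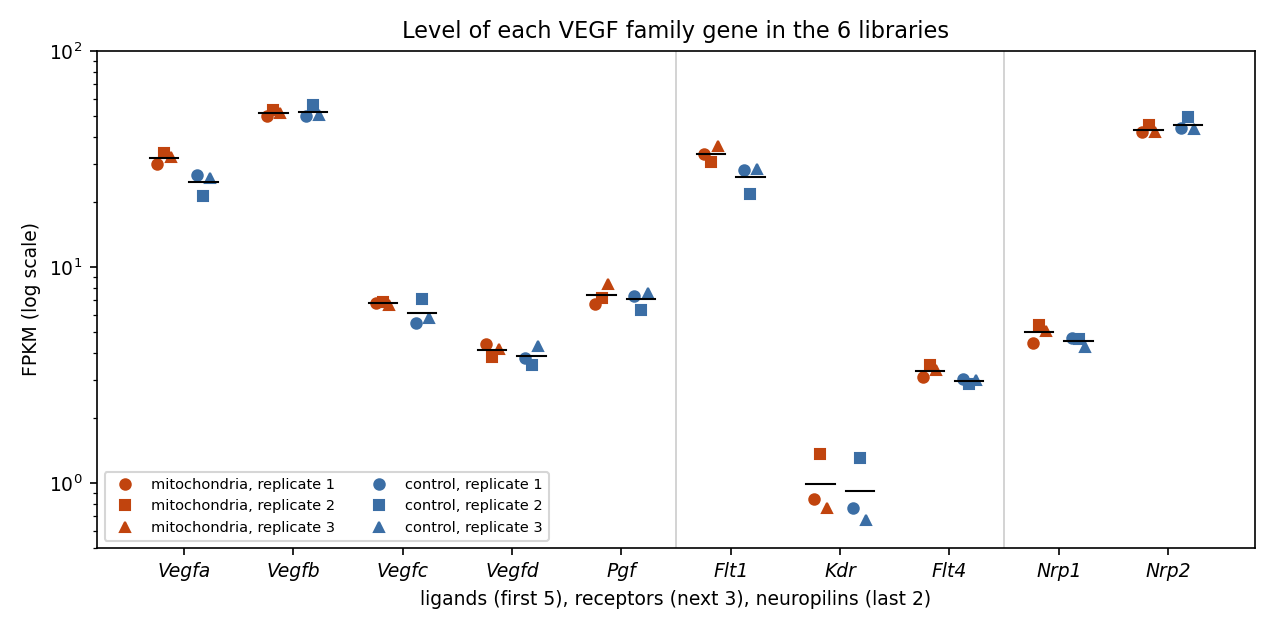
FPKM on a log scale for each member, with 3 mitochondria libraries to the left of 3 control libraries, marker shapes for replicate numbers and black bars for group means. Vegfb and Nrp2 are highest and Kdr lowest in both groups, and Vegfa, Flt1 and Flt4 are the members whose groups do not overlap.

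This order depends on the length used. The deposited FPKM divide by all annotated exons of a gene together, which for Flt1 come to 13504 bases although its longest coding transcript has 6895. In 99.8% of 9010 genes with several transcripts the length implied by count over FPKM lay within 1% of that union. It did not move between libraries, at 1605 bases in each library for Vegfb, so the table cannot show whether isoforms changed, such as soluble against membrane Flt1 or the splice forms of Vegfa. When each value was rescaled to the longest coding transcript of GENCODE M21, a scale chosen after seeing the data, Nrp2 came first, at 76.1 ± 3.32 in mitochondria and 79.9 ± 5.68 in control libraries (SD, n = 3). Flt1 took rank 2 with mitochondria and rank 3 in control libraries, at 65.3 ± 5.76 and 50.9 ± 7.24. Nrp1, whose exons together are 2.72 times its coding transcript, moved above Pgf, at 13.5 ± 1.35 and 12.3 ± 0.591. Kdr stayed lowest, at 1.505 ± 0.495 and 1.39 ± 0.516. The scale is the same in both groups, so fold changes are not altered by it.

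**Figure D2:**
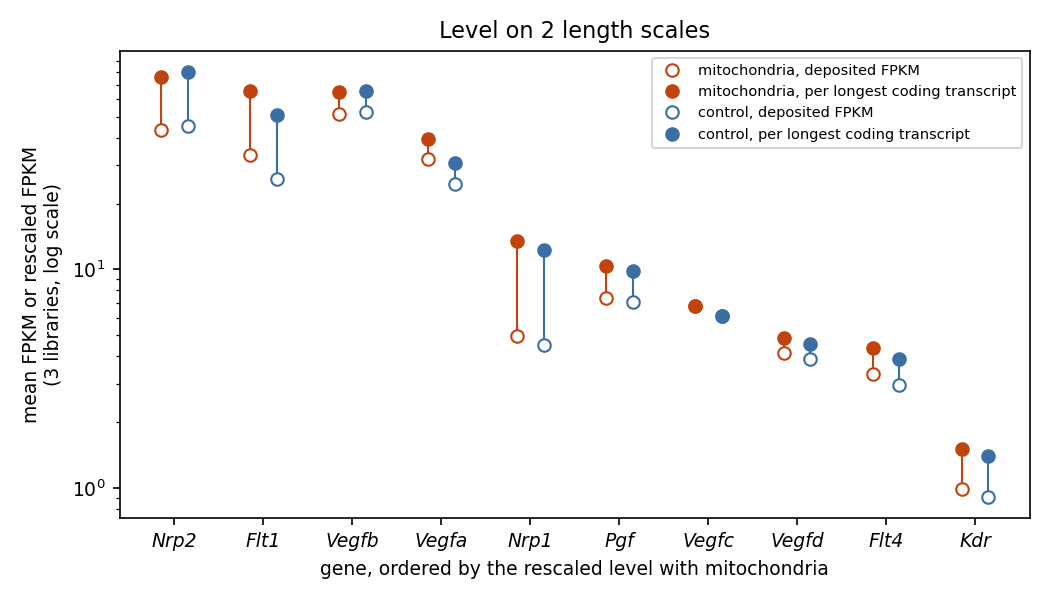
Mean level over 3 libraries in deposited FPKM (open circles) and rescaled to the longest coding transcript (filled circles), log scale, mitochondria left of control for each gene. Nrp1, Flt1 and Nrp2 move up most, by 2.72, 1.96 and 1.76 times, and Vegfc does not move.

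Among the ligands, Vegfa (ENSMUSG00000023951, chromosome 17, 46016993 to 46032369 in GRCm38), the main inducer of new blood vessels and a target of hypoxia-inducible factors, had 29.9, 33.6 and 32.2 FPKM in mitochondria libraries, against 26.7, 21.4 and 25.8 FPKM in control libraries. The groups did not overlap, and control replicate 2 was the lowest of all. The log2 fold change was 0.36 ± 0.094 (SE), with a 95% interval of 0.13 to 0.59, an unadjusted p of 0.00746 and an adjusted p of 0.256 by edgeR, rank 370 of 12774 genes. DESeq2 gave an adjusted p of 0.034. With same-numbered libraries as pairs edgeR gave a log2 fold change of 0.365 ± 0.103 (SE), an unadjusted p of 0.0203 and an adjusted p of 0.242. Without control replicate 2 the log2 fold change was 0.27, the lowest with any library left out.

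Vegfb, a ligand of Flt1 linked to lipid handling in muscle and heart, had 50.03, 53.3 and 51.4 FPKM in mitochondria and 49.9, 56.4 and 50.3 FPKM in control libraries. The groups overlapped, and control replicate 2 was here the highest library. The log2 fold change was -0.030, with an interval of -0.18 to 0.12 (edgeR adjusted p = 0.870). Of the summed FPKM of the 5 ligands Vegfb made up 50.01% to 51.1% in mitochondria and 53.5% to 59.6% in control libraries, and Vegfa 30.5% to 32.1% and 22.6% to 28.7%. Both shares were free of overlap between groups, on the deposited length scale. They are parts of the same sum, so a higher Vegfa share lowers that of Vegfb, whose own level overlapped. How often such shares are free of overlap for other genes was not counted.

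The lymphatic ligands and placental growth factor were lower than these and overlapped between groups. Vegfc (chromosome 8, 54077606 to 54187096) had 6.81, 6.86 and 6.66 FPKM with mitochondria, against 5.48, 7.08 and 5.80 FPKM in control libraries. Vegfd had 4.38, 3.84 and 4.15 FPKM, against 3.80, 3.53 and 4.29 FPKM. Pgf, a Flt1 ligand first found in placenta, had 6.73, 7.17 and 8.36 FPKM, against 7.31, 6.32 and 7.57 FPKM. On the log2 scale the difference was 0.13 for Vegfc, 0.079 for Vegfd and 0.058 for Pgf (edgeR adjusted p = 0.641, 0.796 and 0.858). Their 95% intervals ran from -0.13 to 0.40, from -0.19 to 0.34 and from -0.21 to 0.32. Single libraries moved these values. Vegfc was at 0.064 without control replicate 1 and at 0.25 without control replicate 2, where its unadjusted p was 0.020 and its adjusted p 0.402 by edgeR. Vegfd was at 0.017 without control replicate 2 and at 0.16 without control replicate 3.

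Among the receptors, Flt1 (ENSMUSG00000029648, chromosome 5, 147561604 to 147726011) had 33.2, 30.5 and 36.3 FPKM in mitochondria libraries, against 28.0, 21.8 and 28.3 FPKM in control libraries. The groups did not overlap, and as for Vegfa control replicate 2 was lowest. The log2 fold change was 0.34 ± 0.12 (SE), with a 95% interval of 0.064 to 0.63 and an adjusted p of 0.313 by edgeR and 0.106 by DESeq2. Without control replicate 2 it was 0.23. With same-numbered libraries as pairs it was 0.351 ± 0.0550 (SE) by edgeR. The unadjusted p was then 0.00212, against 0.0233 in the unpaired edgeR fit, and the adjusted p was 0.211. On the deposited scale Vegfa over Flt1 was 0.901, 1.10 and 0.885 in mitochondria and 0.954, 0.982 and 0.911 in control libraries. Rescaled to the longest coding transcripts the ratio was 0.571, 0.700 and 0.561 in mitochondria and 0.605, 0.623 and 0.578 in control libraries, so how even the levels look depends on the length. The groups overlapped on both scales.

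Kdr (ENSMUSG00000062960, chromosome 5, 75932827 to 75978458) had 0.840, 1.36 and 0.761 FPKM in mitochondria and 0.765, 1.30 and 0.673 FPKM in control libraries. Replicate 2 was the highest library in each group, and the groups overlapped almost fully. Within same-numbered pairs Kdr was higher with mitochondria in 3 of 3 by FPKM and by scaled counts. By unscaled estimated counts, which do not allow for library totals, it was higher in 2 of 3. How often a gene is higher in 3 of 3 pairs was not counted over all genes. In the fit with no filter, which held 27967 genes, the log2 fold change was 0.097 with an interval of -0.66 to 0.85 (unadjusted p = 0.770 by edgeR). With same-numbered libraries as pairs it was 0.11, with an interval of -0.12 to 0.34 (adjusted p = 0.681 by edgeR). Flt1 exceeded Kdr by 39.5, 22.4 and 47.8 times in mitochondria and by 36.6, 16.7 and 42.1 times in control libraries, in deposited FPKM. Rescaled to the longest coding transcripts it was 50.7, 28.8 and 61.3 times in mitochondria and 46.9, 21.5 and 54.0 times in control libraries. Kdr is commonly the leading VEGF receptor of blood endothelium, and it was the lowest member here in both groups.

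Flt4 (chromosome 11, 49609263 to 49652739) had 3.08, 3.49 and 3.33 FPKM with mitochondria, against 3.02, 2.88 and 3.00 FPKM in control libraries. The groups did not overlap, by a gap smaller than the spread within the mitochondria group. The log2 fold change was 0.14 ± 0.070 (SE; edgeR adjusted p = 0.448). With Vegfa and Flt1 it makes 3 of the 9 tested members whose CPM values in mitochondria libraries all stood above the control libraries, against 10.8% of all genes tested. CPM are counts scaled to the library total after TMM adjustment. In either direction, groups without overlap were found in 3 of the 9 members and in 21.4% of all genes tested.

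Of the neuropilins, Nrp1, the co-receptor that binds Vegfa in arterial and brain endothelium, had 4.42, 5.40 and 5.06 FPKM in mitochondria and 4.67, 4.62 and 4.27 FPKM in control libraries. Nrp2 (chromosome 1, 62703285 to 62818695), better known with Vegfc and Flt4 in lymphatic and venous cells, had 42.1, 45.4 and 42.1 FPKM, against 43.8, 49.1 and 43.2 FPKM. The groups overlapped in both genes. The log2 fold changes were 0.12 for Nrp1 and -0.084 for Nrp2 (edgeR adjusted p = 0.589 and 0.622). Nrp2 was lower in 3 of 3 same-numbered pairs, a tally that was not made over all genes. Nrp1 was at 0.055 without mitochondria replicate 2 and at 0.20 without mitochondria replicate 1, and Nrp2 at -0.12 without mitochondria replicate 2 and at -0.023 without control replicate 2. Nrp2 exceeded Nrp1 by 8.31 to 9.52 times in mitochondria and by 9.38 to 10.6 times in control libraries in deposited FPKM, and by 5.38 to 6.16 and 6.07 to 6.88 times when rescaled to the longest coding transcripts. The gene Gm37121 overlaps Nrp2 on the same strand and Mir1903 overlaps Nrp1, so reads in those parts may be shared.

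**Figure D3:**
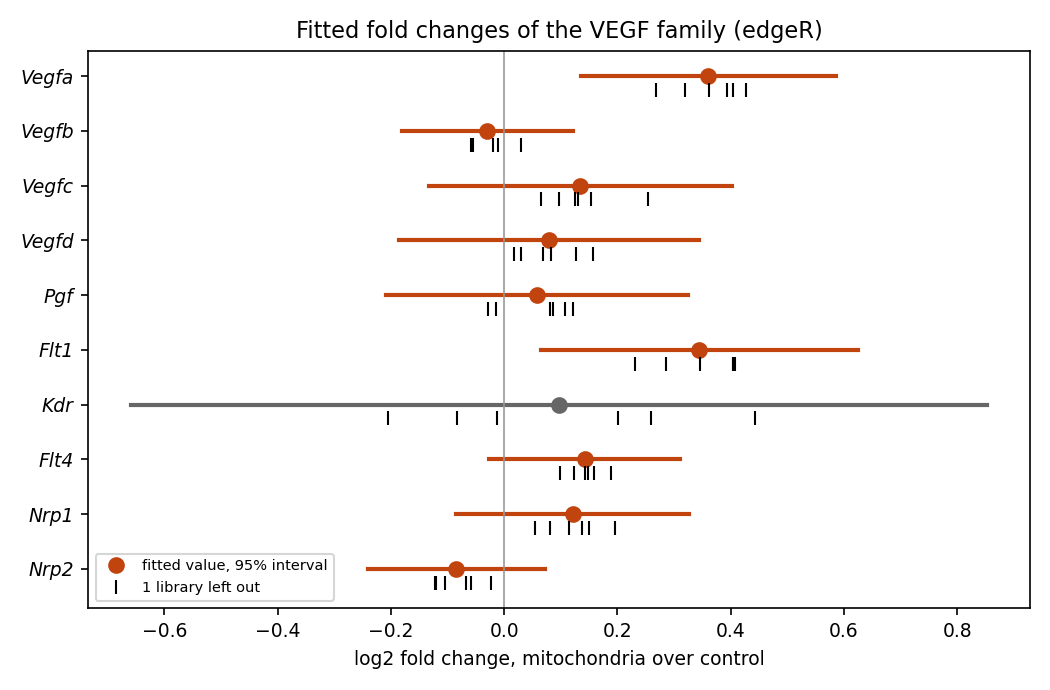
Log2 fold change of each member, mitochondria over control, with its 95% interval from edgeR, and ticks for the values with 1 library left out. The intervals of Vegfa and Flt1 lie above 0 before adjustment, those of the 8 others include 0, and Kdr (grey, fitted with no filter) has the widest.

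Control replicate 2 stood apart in several members. Its log2 CPM was 0.38 below the mean of the 6 libraries for Vegfa and 0.42 below for Flt1. It was 0.13 above for Vegfb, 0.15 above for Vegfc and 0.16 above for Nrp2, the highest library in each. For Kdr the departure went with the replicate number, at 0.57 above the mean in mitochondria replicate 2 and 0.52 above in control replicate 2.

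**Figure D4:**
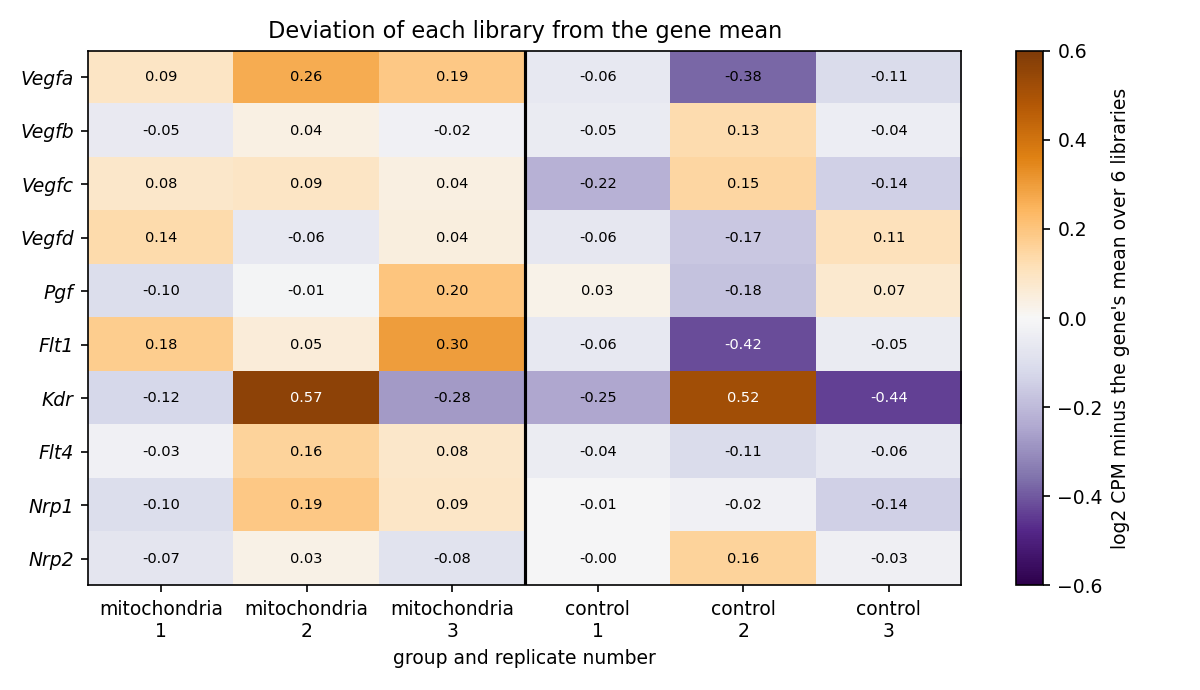
Log2 CPM of each member in each library minus the mean of its 6 libraries, mitochondria left of the line and control right of it. Control replicate 2 is lowest for Vegfa (-0.38) and Flt1 (-0.42), and both replicates numbered 2 are highest for Kdr (0.57 and 0.52).

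Over the 6 libraries the genes whose log2 CPM followed Vegfa most closely were Nabp1, Chil1, Ptpn3, Tspan12 and Coro6, with Pearson r of 0.989 to 0.992. Flt4 had r = 0.907, rank 266 of 12773 genes, and Flt1 r = 0.883, rank 383. Nearest to Flt1 were Itga7, Polr1a, Eif2b1, Ppfia1 and Tnxb, with r of 0.991 to 0.999. Nrp2 ran opposite to Flt1, at r = -0.922. These values describe 6 libraries in 2 groups and were picked from 12773 genes, so they carry no test.

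Genes around the family were counted in the same fit. In lists of ligand processing, receptor partners, semaphorins and plexins, receptor signal relay and VEGF-induced genes, edgeR called 0 of 10, 0 of 24, 0 of 9, 0 of 43 and 0 of 23 tested genes, against 0.164% of all genes. DESeq2 called 0, 1, 0, 1 and 1, against 2.82% of all genes. At an unadjusted p under 0.05 edgeR had 0, 7, 0, 8 and 4, which is 29.2% of the receptor partners, 18.6% of the relay genes and 17.4% of the VEGF-induced genes, against 13% of all genes. The median log2 fold changes were 0.0068, 0.050, 0.032, -0.0017 and 0.020, against -0.0016 over all genes tested. The term for the VEGF pathway in the deposited table gave 0 of 35 tested genes by edgeR, with a median of 0.014 and 6 genes (17.1%) at an unadjusted p under 0.05. DESeq2 called 2 of them, Cdc42 and Vegfa.

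Among VEGF-induced genes the smallest p was that of Apln, the ligand of the apelin receptor, which is known in endothelial tip cells. It had 10.8, 10.6 and 11.4 FPKM with mitochondria, against 8.53, 7.79 and 8.07 FPKM in control libraries, without overlap. The log2 fold change was 0.42 (adjusted p = 0.141 by edgeR and 2.59e-05 by DESeq2). Next by p were Hlx, a homeobox gene, with a log2 fold change of 0.13, and the leukocyte adhesion genes Vcam1 and Icam1, at -0.38 and 0.14, for which edgeR gave adjusted p-values between 0.308 and 0.372.

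Of the receptor partners, Itgav, the integrin alpha V chain, had 8.83, 17.7 and 18.9 FPKM with mitochondria, against 8.51, 8.20 and 8.71 FPKM in control libraries. Mitochondria replicate 1 was close to the control libraries. The log2 fold change of 0.82 had an adjusted p of 0.305 by edgeR and 0.0345 by DESeq2. By log2 fold change Vash1, an angiogenesis inhibitor, was at 0.45, Ptpn11, the phosphatase SHP2, at 0.12, and Efnb2, the arterial ephrin that takes part in VEGF receptor uptake, at -0.38 (edgeR adjusted p = 0.281, 0.292 and 0.305). In the signal relay the small GTPase genes Cdc42 and Rac1, the calcineurin subunit gene Ppp3r1 and the exchange factor gene Vav2 had log2 fold changes of -0.18, -0.14, -0.16 and 0.31 (edgeR adjusted p = 0.247 to 0.298), and DESeq2 called Cdc42 lower at 0.0221.

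The semaphorin partners of neuropilins showed smaller differences. Plxnd1, the endothelial plexin, had 42.3 ± 0.542 FPKM with mitochondria and 38.6 ± 2.30 FPKM in control libraries (SD, n = 3; edgeR adjusted p = 0.410). Sema3b, Plxna2 and Sema3e had log2 fold changes of 0.16, -0.056 and 0.25, for which edgeR gave adjusted p-values between 0.618 and 0.709. In ligand processing the smallest p-values were those of Ccn2 and Thbs1, which encode secreted matrix proteins, at log2 fold changes of -0.69 and -0.49, of the protease gene Adamts1 at -0.22 and of the urokinase gene Plau at 0.10 (edgeR adjusted p = 0.450 to 0.765).

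The platelet-derived growth factors, KIT and related ligands and receptors, kin of the VEGF system, were compared in the same fit. Of 9 tested genes 2 were above 0 and 7 below, with a median log2 fold change of -0.15, against 7 of 9 above 0 and a median of 0.12 for the VEGF family. In neither list did edgeR call a gene, and 3 of these 9, Csf1, Kitl and Pdgfc, had an unadjusted p under 0.05, against 13% of all genes. Csf1, the macrophage growth factor gene, had 25.6 ± 0.654 FPKM with mitochondria and 29.9 ± 2.88 FPKM in control libraries (SD, n = 3; edgeR adjusted p = 0.296). Kitl, Pdgfc and Pdgfa had log2 fold changes of -0.15, -0.18 and -0.15 (edgeR adjusted p = 0.356, 0.367 and 0.528). The difference between the lists was not tested. Of the 10 genes of hypoxia-inducible factors and their regulators, edgeR called 0, with 3 at an unadjusted p under 0.05, against 13% of all genes. DESeq2 called 2 higher, the prolyl hydroxylase genes Egln1 and Egln3 that sense oxygen, against 2.82% of all genes in either direction and 1.62% higher. Egln1 had 19.0 ± 1.80 FPKM with mitochondria and 13.8 ± 1.20 FPKM in control libraries, and Egln3 60.02 ± 3.84 and 48.2 ± 1.98 FPKM (SD, n = 3; adjusted p = 0.215 for each by edgeR, and 0.00312 and 0.0073 by DESeq2). Hif1a, the alpha subunit, had 61.4 ± 1.32 FPKM with mitochondria and 65.6 ± 1.36 FPKM in control libraries (SD, n = 3; edgeR adjusted p = 0.348). Hif3a, encoding a related subunit, had 5.00 ± 0.0913 and 5.46 ± 0.416 FPKM (edgeR adjusted p = 0.462).

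**Figure D5:**
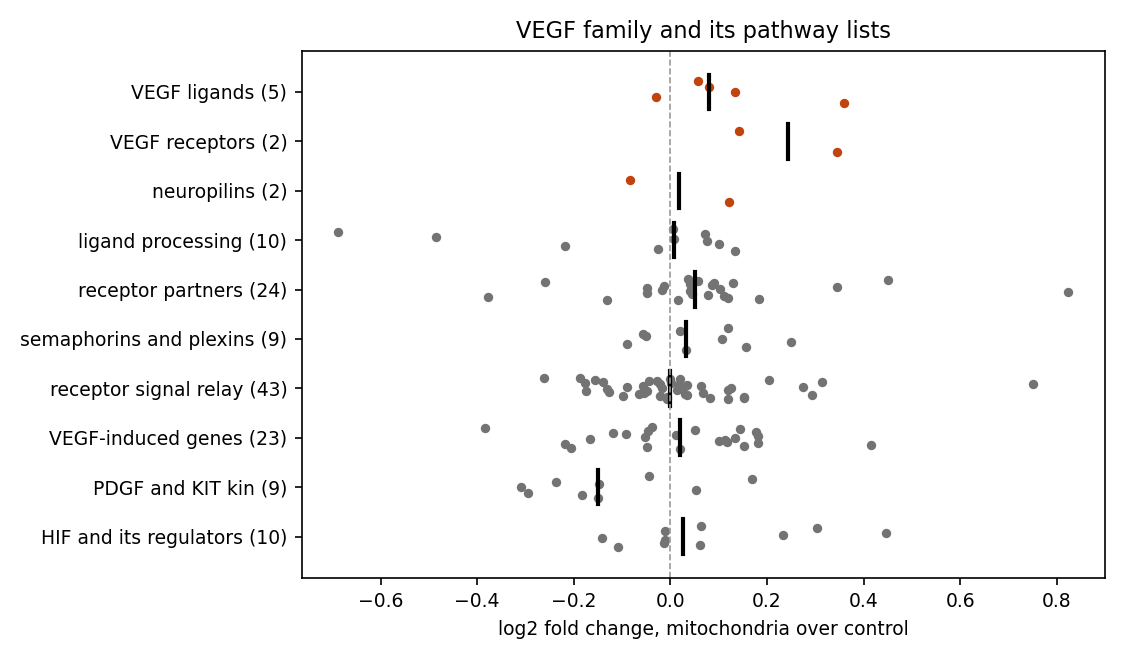
Log2 fold change, mitochondria over control, of each tested gene in the VEGF family (orange) and in the lists around it (grey), with the number tested in brackets, a black bar for each median and a dashed line for the median of all genes tested. The medians lie between -0.15 for the platelet-derived growth factor kin and 0.24 for the 2 receptors tested.

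Library totals ranged from 65394770 to 73376834 estimated counts. Of 21 endothelial markers 8 reached a mean of 1 FPKM. Cd34, at 188.9 to 209.0 FPKM with mitochondria and 157.0 to 187.7 in control libraries, and Eng were high. The rest of the 8 were Flt1, Tie1, Ets1, Egfl7, Ly6a and Ly6c1. Pecam1 reached at most 0.201, Cdh5 0.172, Vwf 0.260, Erg 0.450, Sox18 0.179, Emcn 0.0982, Sox17 0.0539 and Robo4 0.0194 FPKM. Tek, Esam, Fli1 and Kdr also had means under 1 FPKM, and Cldn5 had a count of 0 in all libraries. The 21 summed to 2612 to 2664 CPM with mitochondria and 2161 to 2510 CPM in control libraries, lowest in control replicate 2. Flt1 and Kdr are among them, and the 19 others summed to 2054 to 2178 CPM with mitochondria and 1814 to 2073 CPM in control libraries, which overlap. DESeq2 called 2 of the 8 tested, Tie1 and Ly6a, against 2.82% of all genes. Tie1 and Ly6a had log2 fold changes of 0.34 and 0.84, and Eng -0.24 (edgeR adjusted p = 0.251, 0.304 and 0.332). The endothelial label is thus met by some of its markers only, and Kdr belongs with the low ones. Of 15 markers of the donor line's cell type, osteocytes, 5 reached 1 FPKM, and Dmp1, Mepe, Dkk1 and Ibsp had a count of 0 in all libraries. The 15 summed to 474.7 to 497.2 CPM with mitochondria and 497.9 to 518.6 CPM in control libraries. Of 6 lymphatic markers Flt4 alone reached 1 FPKM, and Lyve1 and Ccl21a had a count of 0. Transcripts of other tissues differed between libraries. The 22 acinar markers summed to 56.2 to 61.9 CPM with mitochondria and 160.9 to 270.4 CPM in control libraries, highest in control replicate 2, and the 16 hepatocyte markers to 59.3 to 134.5 and 106.6 to 116.5 CPM, lowest in mitochondria replicate 1. These sums hide larger differences in single genes. Ctrb1 had 0 FPKM in every mitochondria library, against 27.8, 43.5 and 23.1 FPKM in control libraries. Clps, Cela2a, Prss2 and Try4 also had 0 FPKM in every mitochondria library and were present in every control library. Cela1 was present in both groups, at 20.7 to 22.8 FPKM with mitochondria and 22.01 to 28.6 FPKM in control libraries. In the acinar list 16 genes reached 1 FPKM and were tested, with fold changes below 0 in 15 and above 0 in 1. By edgeR 10 were called lower, against 0.102% of all genes lower and 0.164% in either direction. Over all genes tested edgeR called 21, of which 13 were lower, and these 10 are among the 13. The 10 were Prss2, Ctrb1, Clps, Cela2a, Try4, Sycn, Cpa1, Pnliprp1, Ctrl and Pnlip. DESeq2 called 14 lower, these and Try5, Cela3b, Zg16 and Reg1, against 2.82% of all genes in either direction. With same-numbered libraries as pairs edgeR called 0 genes in the whole table. Prss1 had a count of 0. In the hepatocyte list 6 reached 1 FPKM and edgeR called 0, with 0 at an unadjusted p under 0.05 and 0 called by DESeq2. Their part in the values of Vegfa and Flt1 was not tested. The source of the acinar and hepatocyte transcripts in these bEnd.3 samples was not tested either. For the endothelial and osteocyte markers, bulk RNA cannot tell fewer cells of a type from less RNA per cell.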

How the data were processed

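RNA sequencing of 6 bEnd.3 samples was analysed, 3 with mitochondria and 3 control, grouped by the treatment label. Per the submitters' processing notes the tools were DESeq2, edgeR, StringTie 2.1.6, HISAT2 2.2.1 and cutadapt 1.9, with no role named, and GRCm38 was the genome. The sources used here give neither annotation nor strand setting. The authors deposited FPKM values and whole estimated counts per gene. The counts may not be fragments counted one by one, because among values of 1 to 20 a share of 36.6% could be divided by 4, where an even spread gives 25%, so the depth in fragments is unknown.

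The members and lists were chosen with earlier results of these data known. Deposited counts were tested with edgeR (4.0.16, under R 4.3.3), by quasi-likelihood and with TMM scaling, for genes with a mean FPKM of at least 1, with Benjamini-Hochberg adjustment over all genes tested and calls under 0.05. Kdr was taken from the fit with no filter. Alternatives used DESeq2 1.42.0, limma 3.58.1 with an intensity trend, other scalings and filters, and fits without each library. Standard errors and 95% intervals come from the F statistic. Tests were checked on simulated data, where DESeq2 made more false calls than edgeR or limma but also found more of the true differences. There edgeR and limma missed most of the smaller true differences, which were larger than those fitted here for Vegfa and Flt1. A gene that was not called may therefore still differ. Named genes are all members, up to 4 genes with the smallest p in each list and any called by edgeR, and the 5 nearest to Vegfa and to Flt1 by Pearson r, without Gm and Rik names. Genes called by DESeq2 were also named, after their values were seen.

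The groups share replicate numbers. How far each log2 CPM lay from its group mean correlated at 0.150, 0.171 and 0.266 between same-numbered libraries and at -0.223 to 0.0596 between others. Same-numbered libraries were thus weakly alike, but the labels do not state that they are pairs. The main fits are unpaired, and the paired fit is given as an alternative. GENCODE M21, also in GRCm38, gave exon lengths.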

Additional observations from a re-analysis of the deposited data

How the results depend on the processing

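Of the family, Vegfa, Vegfc, Vegfd, Flt1, Flt4, Nrp1 and Nrp2 kept their direction under each alternative that tested them (15 or 16 for each gene). Vegfa crossed the threshold under DESeq2 alone (log2 fold change 0.36), which made the number of members called 1 in place of 0. Its adjusted p was 0.034 by DESeq2 and up to 0.513 over the 16 alternatives, and its log2 fold change 0.27 to 0.43. With 1 library left out, Vegfb ranged from -0.058 to 0.030, turning above 0 without control replicate 2, and Pgf from -0.028 without mitochondria replicate 3 to 0.12, also below 0 without control replicate 2 (-0.015). Kdr, refitted with no filter under settings chosen after seeing the data, ranged from -0.21 without mitochondria replicate 2 to 0.44 without control replicate 2, and was -0.013 without control replicate 1 and -0.084 without control replicate 3. The Kdr fits named here each leave out a library and are unpaired. The Kdr fit with same-numbered libraries as pairs gave 0.11. DESeq2 called 2 endothelial markers, 2 regulators of hypoxia-inducible factors, 1 receptor partner, 1 VEGF-induced gene, 1 relay gene and 2 genes of the deposited VEGF term, where edgeR called 0. Without a library the number of receptor partners called was 0 to 1, with Itgav called without mitochondria replicate 1 (log2 fold change 1.10, edgeR adjusted p = 0.0104). Over the whole table edgeR called 21 genes, DESeq2 360, the filter at a mean FPKM of 5 left 8, limma on log2(FPKM + 5) gave 11, the replicate block 0 (with 2153 at an unadjusted p under 0.05) and leaving out a library 1 to 27 (1 without control replicate 1 and 12 without control replicate 3). The replicate block, which treats same-numbered libraries as pairs, changed no call in the family. The causes of these shifts were not tested. Estimated counts set no exact counting error, and Kdr had the fewest on average, 447 to 970 per library, with an SE of 0.318 in the unpaired fit and 0.0832 in the paired one.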
